A study of Mus musculus with 6 samples.

Results

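Non-dividing microglia of the inflamed spinal cord were examined in mice with experimental autoimmune encephalomyelitis (EAE), a myelin-directed autoimmune model of multiple sclerosis. Cells were chosen by transcript counts alone, and genes outside the choice were then described in them. The gene lists were chosen with earlier results of these data known, so they are no independent check of activation. A cell of the 4 EAE libraries was kept when the UMIs (unique molecular identifiers, 1 per captured transcript) of the microglial genes Tmem119, P2ry12, Siglech, Sparc and Olfml3 summed to at least 5, when that sum exceeded 2 times the UMIs of the monocyte genes Ccr2, Ly6c2, Fn1, F10, Tgfbi, S100a4 and Plac8, and when the division genes Top2a, Mki67, Ube2c, Birc5, Cdk1 and Ccnb2 gave at most 1 UMI together. This left 551 of 7121 EAE cells, in a series of 9078 cells. Because these 18 genes chose the cells, their values describe the selection. They stayed in the fits over all genes, and where they are among the counted calls this is said and nothing is read from them.

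All mice were C57BL/6 at 10 weeks of age. Spinal cord cells were labelled for CD11b, a surface integrin of myeloid cells, and with 10 µM DCFDA, a dye that fluoresces after oxidation by reactive oxygen species (ROS), and were then sorted and made into 3′ droplet libraries. The groups were dye-positive cells at EAE onset (EAE ROS+), dye-negative cells at EAE onset (EAE ROS-) and dye-negative cells of healthy mice (healthy ROS-), with 2 libraries each. The labels do not say whether libraries came from separate animals or how many animals each held, so p-values measure the spread between libraries, which may be technical. The sort gates on CD11b and dye decide which cells could enter any share given here.

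Microglia are the resident macrophages of the central nervous system. They settle before birth, renew themselves locally and depend on signals through the receptor encoded by Csf1r. In the healthy cord they express purinergic and chemokine receptors such as P2ry12 and Cx3cr1. In inflammation and degeneration they are known to lower these and to express lipid-handling, antigen-presenting, interferon-responsive and chemokine genes, a shift that the blood-derived monocytes entering the same tissue can share in part.

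The rule found 12 of 1745 cells (0.688%, exact 95% binomial interval 0.356 to 1.2) and 10 of 2233 cells (0.448%, 0.215 to 0.822) in the EAE ROS+ libraries. In the EAE ROS- libraries it found 371 of 1614 cells (23%, 21 to 25.1) and 158 of 1529 cells (10.3%, 8.85 to 12). Selected microglia were thus a small minority of dye-positive cells in both libraries and a larger share of dye-negative ones, without overlap. The ratio to the monocyte genes left out 129 and 45 EAE ROS+ and 193 and 88 EAE ROS- cells that met the other thresholds. These outnumbered the selected cells in both EAE ROS+ libraries and in neither EAE ROS- library, so the size of the contrast depends on that ratio. What these cells are was not tested. The mean share was 0.568 ± 0.17% in EAE ROS+ and 16.7 ± 8.95% in EAE ROS- libraries (SD, n = 2 each), a difference of -16.1 percentage points, with an exact two-sided permutation p of 0.33, the smallest that 2 against 2 libraries allow. The same rule took 1721 of 1755 and 195 of 202 healthy ROS- cells, 98.1% and 96.5%.

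Depth differed widely between the sums. Selected cells held 92352 and 53097 UMIs in the EAE ROS+ libraries, 2651184 and 741630 in the EAE ROS- libraries and 4363927 and 888385 in the healthy ROS- libraries. One UMI in an EAE ROS+ sum was therefore worth 10.8 or 18.8 CPM, the UMIs of a gene scaled to a common total per sum, so values from those 12 and 10 cells are coarse. Selected EAE ROS+ cells had a median of 7456 and 5490 UMIs per library. The medians were 5971 and 4342 UMIs for EAE ROS- cells and 2184 and 3624 UMIs for healthy ROS- cells. Any 2 libraries shared 0 to 7 cell barcodes, and at most 1 among selected cells.

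The threshold on the microglial sum cut through few EAE cells. Sums of 5 or 6 UMIs were found in 0 and 0 selected EAE ROS+ cells and in 3 and 2 selected EAE ROS- cells, and sums of 1 to 4 in 0, 0, 1 and 1 cells outside. The division threshold cut more finely: in the EAE ROS- libraries 83 and 24 selected cells had exactly 1 division-gene UMI, and 30 and 9 microglial cells just outside had 2. Cst7 stood at 739 and 231 CPM in the cells with 1 such UMI and at 560 and 362 CPM in those with 2. Dividing microglia, with 2 or more division-gene UMIs, numbered 14 and 5 in the EAE ROS+ and 128 and 75 in the EAE ROS- libraries.

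Transcripts of other cell types were present at low levels in the selected cells. The 11 T and NK cell markers summed to 0 and 0 CPM in EAE ROS+ and to 87.9 and 87.6 CPM in EAE ROS- selected cells. In healthy ROS- selected cells they summed to 4.12 and 4.5 CPM. The part of T and NK cell RNA in the results was not tested. Of 19 monocyte and macrophage markers outside the rule, 16 and 12 were detected in selected EAE ROS+ cells. The numbers were 17 and 18 for EAE ROS- cells and 18 and 12 for healthy ROS- cells. Their summed level was 3595 and 2279 CPM in EAE ROS+, 2864 and 2377 CPM in EAE ROS- and 606 and 612 CPM in healthy ROS- selected cells, led by Lyz2. Per marker, the level in selected cells was a median 21.6% and 7.24% of that in the monocyte cells of the same EAE ROS+ library, and 14.3% and 9.98% of that in the monocyte cells of the same EAE ROS- library, where monocyte cells are those with at least 5 UMIs of the rule's monocyte genes, more than 2 times the microglial sum, and at most 1 division-gene UMI. This level moved with disease, and its part in the results was not tested. Some values are also given for cells without any rule monocyte UMI, as a description. Selected EAE ROS- cells had a median of 3 and 2 such UMIs, so a count of 0 does not show that a cell held no monocyte RNA. Only 30 and 14 selected EAE ROS- cells, and 0 EAE ROS+ cells, had no rule monocyte UMI.

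To show what members of the interferon and class II groups share upstream of their start sites, the promoters of 4 genes described further on are printed first, each 300 bases from 250 before to 50 after the RefSeq start (GRCm38.p6). Gbp2 and Ifit3 belong to the interferon response, and capitals mark the interferon-stimulated response element core (GAAA, any 2 bases, GAAA) on either strand. Ifit3 was chosen after its values were seen. H2-Aa and H2-Eb1 encode class II antigen-presenting chains, and capitals mark the Y box core GATTGG on either strand.
Gbp2, chr3:142620413-142620712, plus strand: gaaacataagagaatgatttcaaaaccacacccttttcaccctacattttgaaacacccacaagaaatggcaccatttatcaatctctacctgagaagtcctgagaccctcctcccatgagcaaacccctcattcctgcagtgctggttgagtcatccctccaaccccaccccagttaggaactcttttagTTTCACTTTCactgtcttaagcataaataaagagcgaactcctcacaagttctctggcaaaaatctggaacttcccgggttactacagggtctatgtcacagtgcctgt
Ifit3, chr19:34583279-34583578, plus strand: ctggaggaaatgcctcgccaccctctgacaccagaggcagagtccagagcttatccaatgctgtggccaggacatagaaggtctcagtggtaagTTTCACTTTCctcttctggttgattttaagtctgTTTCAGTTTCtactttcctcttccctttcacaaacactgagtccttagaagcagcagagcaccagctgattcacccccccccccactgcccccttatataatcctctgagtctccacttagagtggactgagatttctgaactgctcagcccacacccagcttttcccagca
H2-Aa, chr17:34287774-34288073, minus strand: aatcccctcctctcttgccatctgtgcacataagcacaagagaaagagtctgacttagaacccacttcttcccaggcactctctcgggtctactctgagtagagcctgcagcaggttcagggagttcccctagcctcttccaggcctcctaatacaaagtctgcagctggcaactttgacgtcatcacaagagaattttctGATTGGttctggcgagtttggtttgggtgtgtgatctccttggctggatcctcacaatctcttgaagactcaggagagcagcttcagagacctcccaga
H2-Eb1, chr17:34305617-34305916, plus strand: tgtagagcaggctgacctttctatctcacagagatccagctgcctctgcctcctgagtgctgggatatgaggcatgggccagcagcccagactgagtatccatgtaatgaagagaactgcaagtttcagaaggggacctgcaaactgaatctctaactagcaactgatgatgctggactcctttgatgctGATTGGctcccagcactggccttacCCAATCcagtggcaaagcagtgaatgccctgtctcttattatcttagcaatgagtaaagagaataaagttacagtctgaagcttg
The response element core stood in 20 of the 31 interferon-response genes that had a promoter entry, out of 41 listed, and in 3.99% of all 27025 genes with an entry. The Y box core stood in all 7 class II genes with an entry, out of 10 listed, and in 18.2% of all genes. The first match began at -59 from the start in Gbp2, at -156 in Ifit3, at -49 in H2-Aa and at -60 in H2-Eb1, with 2 matches each in Ifit3 and H2-Eb1. H2-Ab1, Cd74 and Ciita had no entry. Among 18 class I genes with an entry 5 held the response element core and 10 the Y box core. The other 3 motifs searched were the NF-kappaB site (GGGA, any base, TTTCC), TGACGTCA and TGANTCA, on both strands. They stood in 0, 1 and 2 of the 7 class II genes, in 1, 0 and 7 of the 31 interferon-response genes and in 0.466%, 2.03% and 8.97% of all genes. The Y box core also stood in 8 of 20 immediate-early and dissociation-stress genes and 5 of 18 homeostatic genes. It stood in 3 of 19 oxidative phosphorylation, 2 of 15 chemokine and 2 of 31 interferon-response genes. Of the 5 marker genes, 0 held the response element core and 1 the Y box core. A match of letters is a description, not a bound site.

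The 5 genes given as markers of these cells, none of them in the rule, were followed first. Cst7 encodes cystatin F, an inhibitor of lysosomal cysteine proteases. It stood at 617 and 151 CPM in EAE ROS+, at 679 and 285 CPM in EAE ROS- and at 11.7 and 49.5 CPM in healthy ROS- selected cells. Replicate 1 was the higher library in both EAE groups, and every EAE library lay above both healthy ones.

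Cd36 encodes a scavenger receptor for oxidized lipids and fatty acids. It stood at 347 and 264 CPM in EAE ROS+ and at 243 and 224 CPM in EAE ROS- selected cells, against 0.917 and 0 CPM in healthy ROS- cells, where 4 UMIs were counted over 1721 and 195 cells. The ratio of its share of UMIs between the EAE ROS- and healthy ROS- sums was 313 (95% counting interval 122 to 1153). Of the 5 markers it varied least among the 4 EAE libraries.

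Cd72, an inhibitory receptor with a C-type lectin domain best known on B cells, stood at 173 and 301 CPM in EAE ROS+, at 313 and 258 CPM in EAE ROS- and at 18.1 and 28.1 CPM in healthy ROS- selected cells. Ccl12 encodes a ligand of the chemokine receptor CCR2, which draws monocytes. It stood at 682 and 1808 CPM in EAE ROS+, at 1369 and 1742 CPM in EAE ROS- and at 454 and 263 CPM in healthy ROS- cells. Ccl12 was thus already present in healthy microglia, unlike Cd36.

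Cxcl13 encodes the chemokine that attracts B cells and follicular helper T cells through CXCR5. It stood at 32.5 and 37.7 CPM in EAE ROS+, at 215 and 4.05 CPM in EAE ROS- and at 0 and 1.13 CPM in healthy ROS- selected cells. Its high value rested on 1 library and on few cells of it. In EAE ROS- replicate 1, 85 of 371 selected cells held its 570 UMIs, 8 cells held 50% or more of them and 1 cell held 93. In EAE ROS- replicate 2, 2 of 158 cells held 3 UMIs, and in the EAE ROS+ libraries 1 cell each held 3 and 2. Its level in the dividing microglia was 313 and 37.8 CPM in the EAE ROS- libraries, so the same library was the higher one there too.

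**Figure D1:**
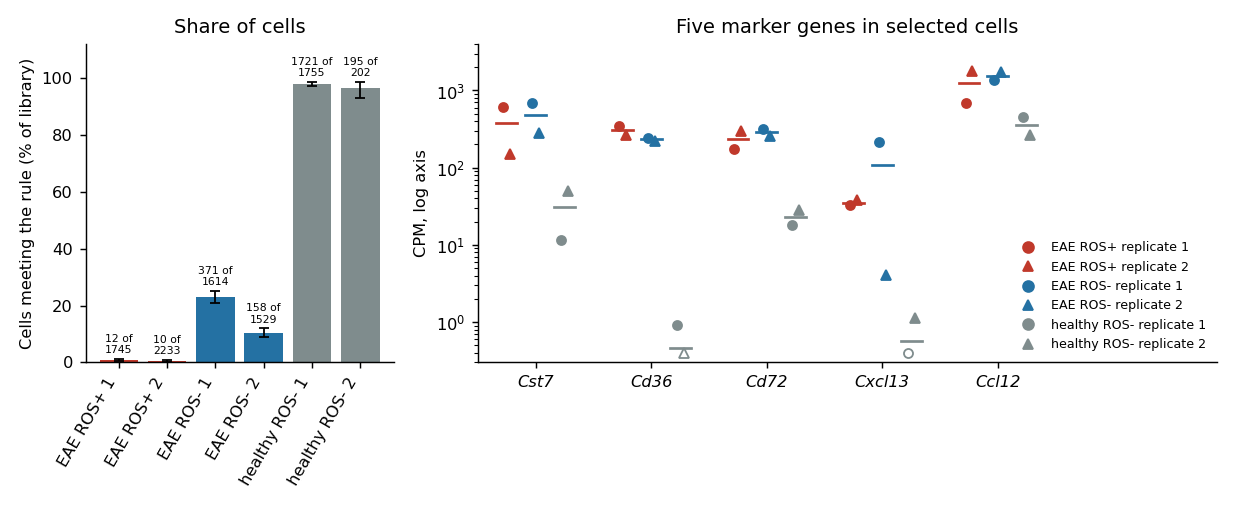
Left, the percent of each library's cells that met the rule, as bars with exact 95% binomial intervals and the cell numbers above them. Right, CPM of the 5 markers in selected cells on a log axis, with a point per library, a line at each group mean, and open points on the lowest line for libraries at 0. The EAE ROS+ libraries gave 12 and 10 cells, and Cxcl13 was high in 1 of 4 EAE libraries.

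After each cell was thinned to 3000 UMIs, Cst7 was detected in 66.7% and 33.3% of EAE ROS+, 74.9% and 50.4% of EAE ROS-, and 4.29% and 7.09% of healthy ROS- selected cells. Cd36 was detected in 75% and 55.6%, 50.4% and 45.1%, and 0.505% and 0% of such cells of the same groups. The last is 0 of 141 cells, which allows a share of cells with a UMI of up to 2.13% (3 counts in 141 cells; the exact 95% upper bound is 2.58%). Cells under 3000 UMIs were left out, namely 0 and 1 cells of the EAE ROS+ libraries, 0 and 25 cells of the EAE ROS- libraries and 1325 and 54 cells of the healthy ROS- libraries. Without thinning the share with Cd36 was 75% and 80%, 71.7% and 54.4%, and 0.174% and 0% in the same groups. Other classes also had cells with these UMIs: monocyte cells of the EAE ROS- libraries, with median totals of 7430 and 6514 UMIs, had Cd36 in 4.22% and 2.56% and Cst7 in 20.5% and 6.7% after the same thinning. The few T cells of those libraries, 26 and 21 after thinning, had Cd36 in 11.5% and 4.76% and Cst7 in 38.5% and 14.3%, at median totals of 5470 and 5466 UMIs. The selected EAE ROS- cells were above both classes for both genes. Whether the UMIs in the other classes came from free RNA or from the cells themselves was not tested.

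The 4 markers other than Cxcl13 were at like levels in selected and in dividing microglia. The ratio of selected to dividing cells in the EAE ROS- libraries was 1.07 and 1.01 for Cst7, 0.839 and 1.11 for Cd36, 1.03 and 1.1 for Cd72, and 0.893 and 0.714 for Ccl12. Against monocyte cells the ratio was 7.12 and 5.8 for Cst7, 11.7 and 14.4 for Cd36, 5.45 and 13.6 for Cd72, and 10.6 and 19.2 for Ccl12. These are descriptions, since the same cells were split by transcript counts.

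The comparison with healthy microglia asks what the disease changed in cells chosen alike, and it used the dye-negative gate in both. Of 7976 genes tested with edgeR's quasi-likelihood test at a Benjamini-Hochberg adjusted p under 0.05, 1033 were higher (13% of those tested) and 808 lower (10.1%) in EAE ROS- than in healthy ROS- selected cells. With DESeq2's size factors in the same fit, which moved the median log2 difference of all genes from -0.05 to -0.17, 839 were higher and 1074 lower in place of 1033 and 808. The total of 1841 was 858 without EAE ROS- replicate 1. It was 1009 without EAE ROS- replicate 2. Lists below are given as members called higher or lower of those tested, beside the all-gene median of -0.05. The counts include 5 monocyte genes of the rule among the higher and 3 microglial genes of the rule among the lower. The lists below hold no rule gene. The EAE ROS+ libraries are not part of this difference, but they were in the same fit and share its scaling, low-count filter and estimate of spread. With the ROS- libraries only, 1206 genes were higher and 933 lower of 9601 tested.

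Interferon-response genes were nearly all higher: 35 of 39 were higher and 0 lower, with a median log2 difference of 3.28, and 22 of 30 were higher in cells without any rule monocyte UMI. Gbp2 encodes an interferon-induced guanylate-binding protein that acts on intracellular pathogens. It stood at 606 and 772 CPM in EAE ROS+ and at 454 and 906 CPM in EAE ROS- selected cells, against 8.25 and 4.5 CPM in healthy ROS- cells (log2 6.74 ± 0.38 SE for EAE ROS- over healthy ROS-, edgeR adjusted p = 1.33e-17). Zbp1, a sensor of left-handed nucleic acid, stood at 249 and 377 CPM in EAE ROS+ and at 244 and 371 CPM in EAE ROS- cells, against 3.44 and 0 CPM in healthy ROS- cells (6.99 ± 0.41, adjusted p = 4.02e-17 by edgeR). All 4 EAE libraries were above both healthy ones for both genes. Without single libraries the difference ran from 6.09 (without EAE ROS- replicate 2) to 7.37 (without healthy ROS- replicate 1) for Gbp2, and it was 11.09 for Zbp1 without healthy ROS- replicate 1.

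Ifitm3, a membrane protein that blocks viral entry, stood at 985 and 979 CPM in EAE ROS+ and at 1101 and 1396 CPM in EAE ROS- cells, against 38.3 and 48.4 CPM in healthy ROS- cells. Ifit3, whose promoter is shown above, was higher by 4.01 ± 0.38 on the log2 scale (edgeR adjusted p = 2.63e-11), and by 3.42 without EAE ROS- replicate 1. Iigp1, an immunity-related GTPase, stood at 276 and 701 CPM in EAE ROS-, against 0.917 and 0 CPM in healthy ROS- cells, a ratio of UMI shares of 484 (189 to 1780). The 4 members that did not pass were Irf1, Irf9, Ddx58 and Slfn8, with log2 differences of 0.22, 0.10, 0.21 and 0.55. In monocyte cells of the EAE ROS- libraries Gbp2 was at 625 and 715 CPM and Zbp1 at 280 and 372 CPM, so selected cells held 0.727 and 1.27 times, and 0.871 and 0.996 times, the monocyte level.

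Class II antigen-presentation genes, which load and display peptides to CD4+ T cells, were higher for 9 of 10 and lower for 0, with a median log2 difference of 3.68. Without EAE ROS- replicate 1, 6 of 9 were higher and the median was 1.64. The median was also lower, with 8 of 9 higher, in cells with 0 division-gene UMIs (1.66) and at 8 or more microglial UMIs (1.70). Without cells above 2 times the median UMIs it was 1.53, again with 8 of 9 higher. Each of these settings tested 9 genes in place of 10. The list fell into high values, such as Ciita at 5.65, and low ones, such as H2-DMa at 1.70. Its median lay between them and moves when 1 gene is no longer tested, so these medians alone do not measure the size of the change. Without EAE ROS- replicate 1 the differences of H2-Aa and Cd74, given below, were smaller too. In cells without any rule monocyte UMI, with 8 tested, the list median was 4.13. H2-Aa, a class II alpha chain, stood at 3108 and 979 CPM in EAE ROS+ and at 3218 and 1505 CPM in EAE ROS- cells, against 16.3 and 6.75 CPM in healthy ROS- cells (log2 7.73 ± 0.50, edgeR adjusted p = 5.03e-16). H2-Eb1, a beta chain, stood at 2480 and 904 CPM in EAE ROS+ and at 2393 and 1308 CPM in EAE ROS- cells, against 9.85 and 7.88 CPM in healthy ROS- cells (7.89 ± 0.47, 6.49e-17). Cd74, the invariant chain that chaperones them, stood at 13698 and 7251 CPM in EAE ROS+ and at 11734 and 6261 CPM in EAE ROS- cells, against 97.8 and 107 CPM in healthy ROS- cells. Replicate 1 was the higher library of both EAE groups for all 3 genes. Without EAE ROS- replicate 1 the differences were 7.02 for H2-Aa and 6.11 for Cd74, in place of 7.73 and 6.71. Without healthy ROS- replicate 1 that of H2-Aa was 8.65.

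Monocyte cells of the EAE ROS- libraries held more of these transcripts still, with H2-Aa at 8720 and 5823 CPM. The selected cells were at 0.369 and 0.258 times that level, above the median ratio of the monocyte markers given earlier and within the range of single markers, the highest of which stood at 37.7% and 50.6% of their monocyte level. In the 30 and 14 EAE ROS- cells with no rule monocyte UMI, H2-Aa was higher than in healthy cells chosen alike (log2 7.46, edgeR adjusted p = 5.14e-16). There 7 of 8 class II genes were higher.

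All 20 class I genes were higher, with a median log2 difference of 2.29 and 18 of 19 higher in cells without rule monocyte UMIs. B2m, the light chain of class I, stood at 15484 and 13485 CPM in EAE ROS+ and at 18771 and 16008 CPM in EAE ROS- cells, against 4060 and 4557 CPM in healthy ROS- cells (log2 2.24 ± 0.32, edgeR adjusted p = 5.93e-07). H2-Q7, a class I-like chain, stood at 576 and 461 CPM in EAE ROS-, against 15.8 and 22.5 CPM in healthy ROS- cells, and Tap1, a peptide transporter, at 259 and 359 CPM, against 33.9 and 22.5 CPM. H2-K, H2-D, H2-Q and H2-T genes are related in sequence, some of them closely, so the division of reads between single members is uncertain.

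Chemokine genes were higher for 10 and lower for 2 of 13 tested, with a median log2 difference of 2.86. Ccl2, a CCR2 ligand like Ccl12, stood at 1397 and 1620 CPM in EAE ROS+ and at 1029 and 1553 CPM in EAE ROS- cells, against 154 and 45 CPM in healthy ROS- cells (log2 3.85 ± 0.35, edgeR adjusted p = 8.32e-12). Its monocyte level in the EAE ROS- libraries was lower, 125 and 162 CPM. Cxcl10, an interferon-induced ligand of CXCR3, stood at 942 and 735 CPM in EAE ROS+ and at 534 and 562 CPM in EAE ROS- cells, against 47.2 and 14.6 CPM in healthy ROS- cells (4.22 ± 0.34, 2.66e-13). Without healthy ROS- replicate 1 the differences were 5.03 for Ccl2 and 5.42 for Cxcl10.

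Ccl5, a chemokine that attracts T cells and monocytes, stood at 1029 and 320 CPM in EAE ROS+ and at 1232 and 400 CPM in EAE ROS- cells, against 19.7 and 59.7 CPM in healthy ROS- cells, and again replicate 1 was higher. In monocyte cells of the EAE ROS- libraries Ccl5 stood at 4348 and 3084 CPM, so selected cells held 0.283 and 0.130 times that level. Its log2 difference of 4.8 ± 0.47 became 3.65 without EAE ROS- replicate 1, 4.02 without healthy ROS- replicate 1 and 5.68 without healthy ROS- replicate 2. The 2 lower members were Ccl6 and Ccl9, with log2 differences of -0.94 and -0.89. Ccl6 lost the call without EAE ROS- replicate 1 (edgeR adjusted p = 0.121), and Ccl9 without EAE ROS- replicate 2 (0.178) or healthy ROS- replicate 2 (0.26). Ccl4 was called higher at 1.08 ± 0.27 (edgeR adjusted p = 0.00302), but lost the call without EAE ROS- replicate 1 (0.85, adjusted p = 0.156) and without healthy ROS- replicate 2 (0.84, 0.0843), and in cells without rule monocyte UMIs its log2 difference was -0.03. Ccl3 did not pass, at 0.24.

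Genes of the disease-associated microglial programme, a set drawn from models of neurodegeneration, were higher for 19 and lower for 1 of 28, with a median log2 difference of 1.97. In cells without rule monocyte UMIs 12 of 23 were higher and 0 lower. Apoe, the lipid carrier, stood at 5587 and 3823 CPM in EAE ROS+ and at 6869 and 3057 CPM in EAE ROS- cells, against 1039 and 1074 CPM in healthy ROS- cells (log2 2.48 ± 0.34, edgeR adjusted p = 2.51e-07). Axl, a receptor kinase that binds Gas6, stood at 184 and 226 CPM in EAE ROS+ and at 243 and 91.7 CPM in EAE ROS- cells, against 15.4 and 19.1 CPM in healthy ROS- cells (3.65 ± 0.36, 5.52e-11). Without EAE ROS- replicate 1 the differences were smaller, 1.71 for Apoe and 2.65 for Axl, and both stayed called.

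Spp1, which encodes the secreted protein osteopontin, stood at 490 and 210 CPM in EAE ROS-, against 20.2 and 52.9 CPM in healthy ROS- cells (log2 3.70 ± 0.37, edgeR adjusted p = 1.2e-10). Its UMIs were concentrated: in EAE ROS- replicate 2, 31 of 158 cells held 156 UMIs and 1 cell held 74 of them. The Spp1 difference was 2.85 without EAE ROS- replicate 1, and 2.98 and 4.43 without healthy ROS- replicates 1 and 2. Lgals3, which encodes galectin-3, stood at 477 and 324 CPM in EAE ROS- against 25.4 and 9.01 CPM in healthy ROS- cells, and at 2578 and 3264 CPM in monocyte cells of the same EAE libraries, so selected cells held 0.185 and 0.0991 times the monocyte level. That is close to the median ratio of the monocyte markers. Its difference was 5.68 without healthy ROS- replicate 1. In cells without rule monocyte UMIs the log2 difference was 3.54 in place of 4.59 (edgeR adjusted p = 3.49e-09). Lpl, Tyrobp, Cd9, Ctsd and Cd68 of this list did not pass, with log2 differences of -0.13, 0.14, 0.36, 0.49 and -0.36.

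**Figure D2:**
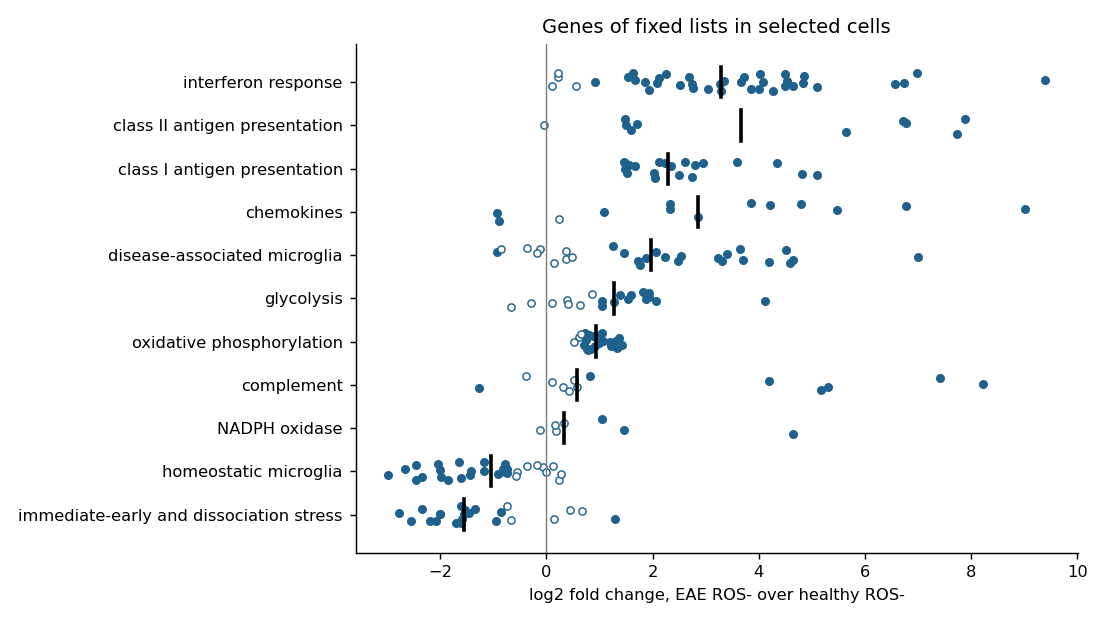
Each point is a gene of a list, placed at its log2 fold change in selected cells, EAE ROS- over healthy ROS-, with filled points for edgeR adjusted p under 0.05 and a black line at the list median. Interferon and antigen-presentation genes lay to the right of 0, and homeostatic and immediate-early genes mostly to the left.

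Of 30 homeostatic microglial genes 21 were lower and 0 higher, with a median log2 difference of -1.04. Jun and Egr1 belong both to this list and to the immediate-early and dissociation-stress list below, so they are counted in both. Of these 30, 12 were lower without EAE ROS- replicate 1, and 15 in cells without rule monocyte UMIs. Gpr34, a lysophosphatidylserine receptor, stood at 314 and 37.7 CPM in EAE ROS+ and at 232 and 165 CPM in EAE ROS- cells, against 1811 and 1902 CPM in healthy ROS- cells (log2 -2.98 ± 0.34, edgeR adjusted p = 2.4e-09). Cx3cr1, the fractalkine receptor, stood at 1234 and 772 CPM in EAE ROS+ and at 1215 and 1277 CPM in EAE ROS- cells, against 3282 and 3241 CPM in healthy ROS- cells (-1.17 ± 0.28, 0.002), and without EAE ROS- replicate 1 its adjusted p was 0.0734. Maf, a transcription factor, was lower by a log2 difference of -2.46 ± 0.28 and Ltc4s, which makes leukotriene C4, by -2.46 ± 0.27.

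Not every gene of that programme passed the test. Csf1r, the receptor for the growth factors CSF1 and IL-34 on which microglia depend, did not pass, at a log2 difference from healthy cells of -0.55 ± 0.27 (edgeR adjusted p = 0.144), while DESeq2 called it lower at -0.68 (4.88e-05). Among the rule genes, given as a description, P2ry12 stood at 389 and 485 CPM in EAE ROS- and 2568 and 2631 CPM in healthy ROS- cells, and Olfml3 at 1064 and 1568 CPM and 1500 and 1603 CPM. Cst3, which encodes the protease inhibitor cystatin C, stood at 11555 and 12259 CPM in EAE ROS- cells against 69506 and 72330 CPM in healthy ROS- cells (log2 -2.36 ± 0.34, 6.7e-07).

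Among all genes at a log2 CPM of 5 or more whose libraries did not overlap, the 10 largest losses outside the rule were Cldn5, Gp9, Thrsp, Adamts1, Sox4, Fscn1, Slc40a1, Hpgd, Csmd3 and Serpinf1. Fscn1, an actin-bundling protein, stood at 22.6 and 25.6 CPM in EAE ROS- cells against 400 and 249 CPM in healthy ROS- cells (log2 -3.54 ± 0.30, edgeR adjusted p = 1.75e-12). Hpgd, which inactivates prostaglandins, stood at 44.1 and 47.2 CPM against 554 and 474 CPM, and Slc40a1, the iron exporter ferroportin, at 6.79 and 4.05 CPM against 90.3 and 48.4 CPM. Without EAE ROS- replicate 1 the differences of Thrsp, Adamts1, Sox4 and Slc40a1 were -5.66, -3.24, -4.68 and -3.93, in place of -4.29, -3.94, -3.58 and -3.30, and that of Adamts1 was -4.54 without EAE ROS- replicate 2. Cldn5 is an endothelial tight-junction gene, with 0 UMIs in EAE ROS- cells and 2 and 284 in the healthy ROS- replicates. In healthy ROS- replicate 2, 80 of 195 cells had it, and without that library its adjusted p by edgeR was 0.568. The summed level of 9 endothelial markers was 16.2 and 16.2 CPM in the EAE ROS- libraries and 11.5 and 889 CPM in the healthy ROS- libraries.

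Lysosomal, scavenger and growth-factor lists were mixed. Of 31 lysosome and phagocytosis genes 15 were higher and 1, Cst3, lower, with a median log2 difference of 0.70, and without EAE ROS- replicate 1 it was 9 and 1. Ctsc, which encodes cathepsin C, stood at 1689 and 1431 CPM in EAE ROS+ and at 1925 and 2302 CPM in EAE ROS- cells, against 469 and 486 CPM in healthy ROS- cells (2.36 ± 0.28, edgeR adjusted p = 1.14e-08). Grn, the secreted lysosomal protein progranulin, stood at 3412 and 2856 CPM in EAE ROS- against 991 and 878 CPM in healthy ROS- cells. Ctsc and Grn thus lay above healthy levels in every EAE library.

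Of 20 scavenger and lipid-handling genes 10 were higher and 0 lower, with a median of 0.94; without EAE ROS- replicate 1 it was 7 and 2 of 21, with a median of 0.50. Ch25h, which makes 25-hydroxycholesterol, stood at 43.3 and 0 CPM in EAE ROS+ and at 76.2 and 117 CPM in EAE ROS- cells, against 0.687 and 2.25 CPM in healthy ROS- cells (log2 6.71 ± 0.51, edgeR adjusted p = 7.28e-14), and the difference was 5.49 without healthy ROS- replicate 1. Its selected to monocyte ratio in the EAE ROS- libraries was 9.42 and 11.2. Apoc2, an activator of lipoprotein lipase, stood at 115 and 33.7 CPM in EAE ROS- against 2.52 and 3.38 CPM in healthy ROS- cells, and at 0.2 and 0.083 times the monocyte level. Its difference of 5.12 became 3.78 without EAE ROS- replicate 1. Of 15 TGF-beta and growth factor genes 5 were higher and 2 lower, with a median of -0.18. Tgfbr1, a TGF-beta receptor, stood at 307 and 165 CPM in EAE ROS- against 889 and 649 CPM in healthy ROS- cells.

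Complement genes split by component. C4b, a component of the classical pathway, stood at 141 and 151 CPM in EAE ROS+ and at 111 and 144 CPM in EAE ROS- cells, against 0.458 and 2.25 CPM in healthy ROS- cells (log2 7.41 ± 0.48, edgeR adjusted p = 4.77e-16), and at 23.3 and 23.1 CPM in monocyte cells of the EAE ROS- libraries. Cfb, the protease of the alternative pathway, stood at 99.6 and 143 CPM in EAE ROS- against 0.458 and 0 CPM in healthy ROS- cells, a ratio of UMI shares of 286 (78.7 to 2374), and at 510 and 1051 CPM in monocyte cells. C1qa, C1qb and C1qc, already abundant in healthy microglia, did not pass, with log2 differences of 0.52, 0.42 and 0.58. The C4b difference was 5.91 and 8.12 without healthy ROS- replicates 1 and 2, and that of Cfb was 9.74 in place of 8.23 without healthy ROS- replicate 1. In all, 6 of 13 complement genes were higher and 1 was lower. In cells without rule monocyte UMIs 2 of 10 were higher and 1 lower.

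Receptor and cytokine lists were mixed. Fcgr4, an activating receptor for immunoglobulin G, stood at 401 and 301 CPM in EAE ROS+ and at 467 and 696 CPM in EAE ROS- cells, against 21.3 and 25.9 CPM in healthy ROS- cells (log2 4.87 ± 0.32, edgeR adjusted p = 8.21e-16), and 3 of 5 Fc gamma receptor genes were higher. Of 20 inhibitory, costimulatory and checkpoint receptors 7 were higher and 3 lower; Cd300lf, a lipid-sensing inhibitory receptor, stood at 164 and 204 CPM in EAE ROS- against 2.29 and 2.25 CPM in healthy ROS- cells. Il18bp, the soluble inhibitor of interleukin-18, stood at 171 and 198 CPM against 0.229 and 0 CPM, a ratio of UMI shares of 930 (166 to 36809).

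Of 24 inflammatory cytokines and enzymes 12 were higher and 3 lower, and with DESeq2's size factors 9 and 6. In cells without rule monocyte UMIs 6 of 20 were higher and 3 lower. The number lower was 0 of 25 without EAE ROS- replicate 1, EAE ROS- replicate 2 or healthy ROS- replicate 1. Il1b stood at 370 and 328 CPM in EAE ROS- against 44.5 and 23.6 CPM in healthy ROS- cells (log2 3.50 ± 0.30, edgeR adjusted p = 1.38e-12), and the difference was 4.09 without healthy ROS- replicate 1. Saa3, an acute-phase protein, stood at 101 and 59.3 CPM against 1.15 and 1.13 CPM, and Arg1, which degrades arginine, at 70.5 and 90.3 CPM against 7.79 and 0 CPM. The Arg1 difference was 9.15 in place of 3.98 without healthy ROS- replicate 1, where the healthy sum held 0 UMIs. All 3 were more abundant in monocyte cells, with selected cells at 0.172 and 0.107 times the monocyte level for Il1b, 0.126 and 0.0879 times for Saa3, and 0.079 and 0.0433 times for Arg1, which is itself among those markers. Il1b was above the median ratio of the monocyte markers in both libraries, and Saa3 and Arg1 were below it in both. In cells without rule monocyte UMIs Il1b was higher by 3.07 (edgeR adjusted p = 1.43e-08) and Arg1 by 2.93 (0.02).

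Of 19 glycolysis genes 12 were higher and 0 lower with a median log2 difference of 1.28, and 7 of 16 were higher in cells without rule monocyte UMIs. Of 26 oxidative phosphorylation genes 23 were higher and 0 lower with a median of 0.94. With DESeq2's size factors 18 of 26 oxidative phosphorylation genes were higher. In cells without rule monocyte UMIs, where 322 of all 5100 genes tested were higher, it was 7 of 26, with a median of 0.74. The count was 9 without EAE ROS- replicate 1, 6 without EAE ROS- replicate 2 and 8 without healthy ROS- replicate 1, with medians of 0.92, 0.82 and 0.83. Ldha, which interconverts pyruvate and lactate, stood at 444 and 603 CPM in EAE ROS+ and at 540 and 574 CPM in EAE ROS- cells, against 168 and 143 CPM in healthy ROS- cells (2.06 ± 0.26, edgeR adjusted p = 5.3e-08). Ndufa1, a subunit of respiratory complex I, stood at 260 and 236 CPM in EAE ROS- against 116 and 100 CPM in healthy ROS- cells.

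Genes that make or remove reactive oxygen were of interest because of the dye. Of 7 NADPH oxidase genes 3 were higher and 0 lower: Cybb, the catalytic subunit, stood at 292 and 56.5 CPM in EAE ROS+ and at 296 and 121 CPM in EAE ROS- cells, against 9.4 and 12.4 CPM in healthy ROS- cells (log2 4.64 ± 0.41, edgeR adjusted p = 4.47e-12), with Cyba at 1.05 and Rac2 at 1.46. The Cybb difference was 3.74 without EAE ROS- replicate 1, and without that library Cyba lost its call (adjusted p = 0.211). Ncf1, Ncf4 and Hvcn1 did not pass. Of 29 genes of glutathione and ROS scavenging 12 were higher and 2, Ggt5 and Txnip, lower. Txn1, which encodes thioredoxin, stood at 402 and 453 CPM in EAE ROS- against 69.4 and 118 CPM in healthy ROS- cells, and Slc7a11, the cystine transporter, at 40.7 and 14.8 CPM against 2.52 and 2.25 CPM. Slc7a11 was higher by 3.86, and by 2.74 without EAE ROS- replicate 1. Ggt5 lost its call without EAE ROS- replicate 1 (edgeR adjusted p = 0.324) or healthy ROS- replicate 2 (0.0587).

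Immediate-early and dissociation-stress genes were lower for 17 and higher for 1 of 23, with a median log2 difference of -1.56. Without healthy ROS- replicate 1 it was 11 lower and 2 higher, with a median of -0.86. Jun stood at 427 and 614 CPM in EAE ROS- cells against 3193 and 2873 CPM in healthy ROS- cells, and Fos at 769 and 577 CPM against 2625 and 1977 CPM. Transcripts of this list are known to be induced during tissue dissociation as well as by signalling. The exception was Hspa8, a constitutive heat-shock chaperone, called higher at 1.30 ± 0.28 and not called without EAE ROS- replicate 2 (0.88, edgeR adjusted p = 0.114).

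Although cells with 2 or more division-gene UMIs had been left out, 9 of 19 cell cycle genes outside the rule were higher in EAE ROS- than in healthy ROS- selected cells and 0 lower, with a median log2 difference of 0.92. The count was 2 of 20 without EAE ROS- replicate 2, with a median of 0.64. Mcm5, a subunit of the replicative helicase, stood at 14.7 and 32.4 CPM in EAE ROS- against 3.67 and 2.25 CPM in healthy ROS- cells. Mcm5 lost its call without EAE ROS- replicate 2 (edgeR adjusted p = 0.124). Stmn1, a microtubule regulator, stood at 80.3 and 129 CPM against 41.2 and 41.6 CPM. In cells without rule monocyte UMIs 2 of 13 were higher.

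The spread between selected cells was measured within the EAE ROS- libraries. Of 804 genes with a mean of at least 0.5 UMIs after thinning to 3000, the variance over the mean had a median of 1.15. It was highest for Apoe, Actb, Ccl4, Malat1, Cd74, Ctsd, Ccl12, Cst3, Cxcl10, Ccl5, Ccl3, Tmsb4x, Spp1, Fos and Ctss, between 27.8 for Apoe and 6.92 for Ctss, over 371 and 133 cells. Cst7 ranked 77th, Cd72 198th and Cd36 605th, and Cd36, at 1.06, was near the value of 1 that counting alone gives. The measure tends to be higher for abundant genes.

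Apoe ran from 3 UMIs at the 10th percentile to 45 at the 90th in EAE ROS- replicate 1, with a median of 13 and a highest cell of 196, and from 1 to 24.8 with a median of 3 in replicate 2. Ccl4 was at 0 in the median cell of both libraries, while the top 10% of cells held 59.8% and 71.2% of its UMIs. Ccl3 behaved alike, with 68.6% and 77.2%, and Cxcl10 with 64.4% and 64.1%. Ccl12 was broader, with a median of 2 and 3 UMIs and 44.9% and 38.9% in the top 10% of cells.

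Some of these genes varied together between cells. Spearman's rho between Ccl4 and Ccl3 was 0.51 over 371 cells and 0.57 over 133 cells, between Ccl4 and Fos 0.38 and 0.41, and between Ccl3 and Fos 0.35 and 0.35. Ctss and Cst3, both of the cathepsin and cystatin system, gave 0.50 and 0.54, and Tmsb4x, an actin-binding peptide, ran against Ctss at -0.45 and -0.60. The cells behind each value share 1 library and 1 thinned depth. Cst7 went with Ctsd, at 0.29 and 0.26.

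**Figure D3:**
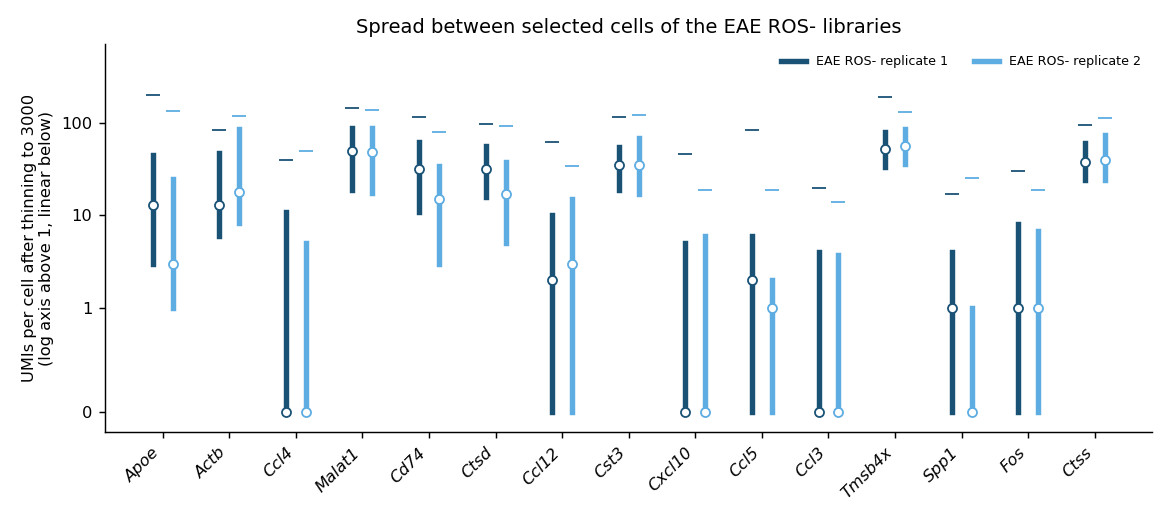
For the 15 genes most variable between cells, bars span the 10th to the 90th percentile of UMIs per selected cell after thinning to 3000 UMIs, open circles mark the median and dashes the highest cell, for the EAE ROS- libraries. Ccl4, Ccl3 and Cxcl10 have a median of 0 and a long upper range.

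The comparison between the dye gates asks whether selected microglia that entered the ROS+ gate differed from those in the ROS- gate. It called 0 of 7976 genes (0% of those tested), with DESeq2 also calling 0; at an unadjusted p under 0.05 there were 503 genes by edgeR and 347 by DESeq2. With the EAE libraries alone and the replicate number as a block, 30 genes were higher and 9 lower, among them Spp1, Egr1, Atf3, Fos, Jun and Klf4. Without the block the same libraries gave 0 calls, and the labels do not say that the numbers pair libraries. The fit with the block also had fewer residual degrees of freedom than the fit over all libraries.

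The lowest adjusted p, 0.207 by edgeR, belonged to Spp1, Atf3 and Egr1. Spp1 stood at 86.6 and 75.3 CPM, that is 8 and 4 UMIs, in EAE ROS+ and at 490 and 210 CPM in EAE ROS- cells, without overlap (log2 -2.25 ± 0.51). The 210 CPM of EAE ROS- replicate 2 rested on few cells: the highest cell held 74 of the 156 UMIs. Egr1, an immediate-early transcription factor, stood at 693 and 490 CPM in EAE ROS+ and at 220 and 179 CPM in EAE ROS- cells (1.46 ± 0.33). Atf3, a stress-induced transcription factor, stood at 574 and 452 CPM in EAE ROS+ and at 180 and 185 CPM in EAE ROS- cells (1.39 ± 0.32).

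Further values of the same kind did not pass the test either. Klf4 stood at 119 and 75.3 CPM in EAE ROS+ and at 21.1 and 22.9 CPM in EAE ROS- cells (log2 2.10 ± 0.50, edgeR adjusted p = 0.213). Fos stood at 2025 and 1205 CPM in EAE ROS+ and at 769 and 577 CPM in EAE ROS- cells (1.16 ± 0.31, 0.375). Nfkbiz, a regulator of NF-kappaB targets, stood at 487 and 320 CPM against 149 and 128 CPM, and Il1a at 455 and 622 CPM against 195 and 233 CPM. The list of 23 immediate-early and dissociation-stress genes had a median log2 difference of 0.91, beside -0.22 over all genes, and 0 were called. Healthy ROS- cells held 2625 and 1977 CPM of Fos, above both EAE ROS- libraries and overlapping with the EAE ROS+ libraries.

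**Figure D4:**
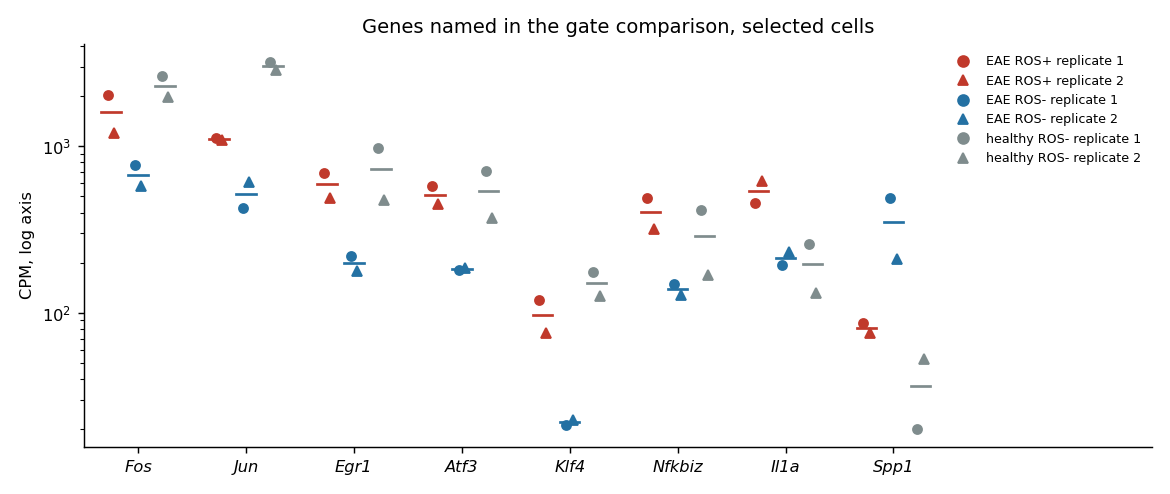
CPM in selected cells on a log axis for 8 genes named in the gate comparison, with a point per library and a line at each group mean. The EAE ROS+ libraries lie above the EAE ROS- libraries for the first 7 genes and below them for Spp1; 0 of these differences passed the adjusted threshold.

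For most lists the gate medians were near that of all genes. Interferon genes had a median log2 difference of -0.29, class II genes -0.30, class I genes -0.48, homeostatic genes -0.20 and NADPH oxidase genes -0.25, with 0 called in each. Cd36 differed by 0.29 ± 0.32, Cd72 by -0.49 ± 0.35 and Ccl12 by -0.54 ± 0.32. Cxcl13 differed most of the markers, by -1.97 ± 1.01 (edgeR adjusted p = 0.754), and by -2.90 when EAE ROS- replicate 2 was left out. Cst7 differed by -0.35 ± 0.45 and took the opposite sign, 0.48, when EAE ROS- replicate 1 was left out and 0.27 when EAE ROS+ replicate 2 was. Cd36 was at -0.19 when EAE ROS+ replicate 1 was left out. A difference that did not pass is not shown to be absent. In the EAE ROS+ sums, 1 cell of replicate 1 held 18 Cldn5 UMIs, the 9 endothelial markers summed to 487 and 0 CPM, and 9 neutrophil markers to 32.5 and 226 CPM, against 15.5 and 9.44 CPM in EAE ROS- cells.

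The last comparison asked whether the gate difference in selected microglia was unlike that in the monocyte cells of the same libraries, in 1 fit over 8 sums with the library as a block. Of 11482 genes tested, 14 differed with a higher gate difference in selected cells (0.122%) and 2 with a lower one (0.0174%), beside a median of -0.39 over all genes. The 14 include the rule genes Siglech and Sparc, which chose the selected cells and limited the monocyte class, so nothing is read from them. At an unadjusted p under 0.05 there were 570, and DESeq2 called 1. Spp1 gave the lowest p: it stood at 86.6 and 75.3 CPM in EAE ROS+ and at 490 and 210 CPM in EAE ROS- selected cells, and at 533 and 483 CPM in EAE ROS+ and at 294 and 320 CPM in EAE ROS- monocyte cells. In EAE ROS- replicate 2 the highest selected cell held 74 of the 156 Spp1 UMIs. The gate difference in selected cells minus that in monocyte cells was negative (log2 -2.99 ± 0.44, edgeR adjusted p = 1.52e-07), but without EAE ROS- replicate 1 the adjusted p was 0.215. Fabp5, a fatty-acid-binding protein, rested on 1 and 0 UMIs in the EAE ROS+ selected cells (10.8 and 0 CPM), against 45.6 and 62.0 CPM in EAE ROS-, and stood at 508 and 428 CPM against 254 and 432 CPM in monocyte cells.

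The higher ones that met the naming rule were Cd36, Cd81, Ckb, Cox6a2, Lag3, Slco2b1 and Mmp12. For Cd81, a tetraspanin, the selected cells stood at 3671 and 3164 CPM in EAE ROS+ and at 4472 and 4634 CPM in EAE ROS-, and the monocyte cells at 71.1 and 35.5 CPM in EAE ROS+ and at 331 and 183 CPM in EAE ROS- (1.59 ± 0.29, edgeR adjusted p = 7.11e-05). Cd36 was at 8 and 5.19 CPM in EAE ROS+ and at 20.7 and 15.5 CPM in EAE ROS- monocyte cells. Selected cells made up 0.688% and 0.448% of the EAE ROS+ libraries and 23% and 10.3% of the EAE ROS- libraries. The part of microglial RNA in monocyte barcodes was not tested. Without EAE ROS- replicate 1 all 9 named genes lost their call, at an adjusted p of 1 by edgeR for both Cd81 and Cd36.

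**Figure D5:**
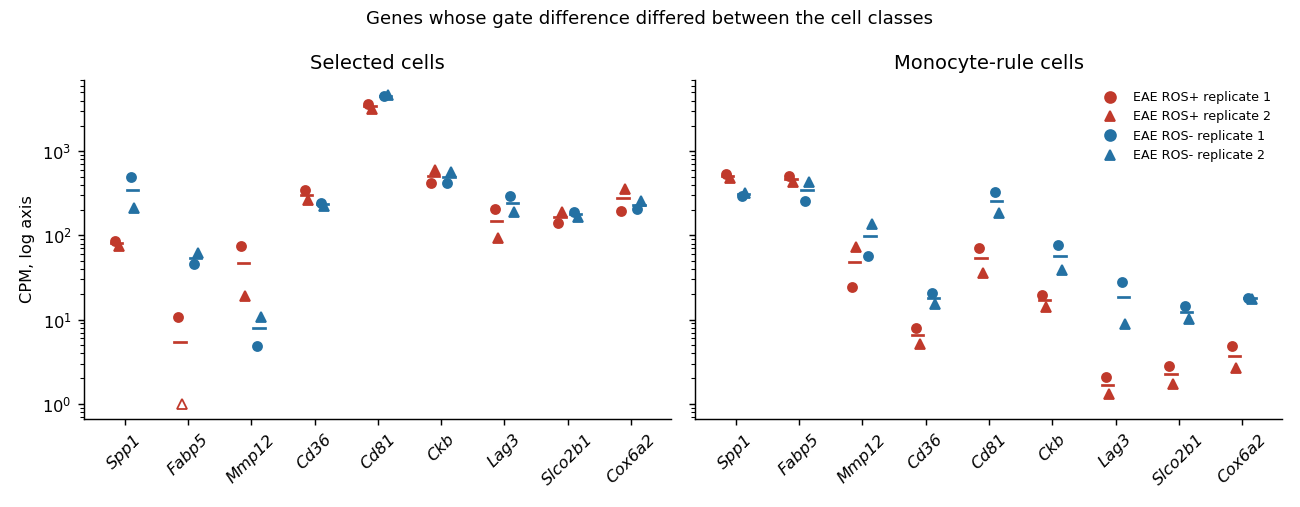
CPM on a log axis for the 9 genes named in the comparison of gate differences, in selected cells on the left and in monocyte cells on the right, with a point per EAE library, lines at group means and an open point for the library at 0. Spp1 was lower in EAE ROS+ than in EAE ROS- selected cells and higher in EAE ROS+ than in EAE ROS- monocyte cells. In EAE ROS- replicate 2 the highest selected cell held 74 of the 156 Spp1 UMIs.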

How the data were processed

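Per the file headers, the authors deposited raw UMI counts, whole numbers for every gene in each barcode, as 1 matrix for each of 6 libraries. The submitters' processing notes name Cell Ranger 2.0.1, Seurat 3, R 3.4.2 and mm10, without their roles; the annotation was not given in the sources used here. In all, the files hold 9079 barcodes, against 8701 cells stated by the submitters. A barcode was kept if it had 200 or more genes and no more than 10% of UMIs from mitochondrial genes (9078 were). Genes were matched by ID. No doublet caller was run; cells above 2 times the median UMIs of their library's selected cells were left out as an alternative. The members and gene lists were chosen with earlier results of these data known. Counts of selected cells were summed per library and tested with edgeR 4.0.16 (R 4.3.3; TMM, minimum count 10, quasi-likelihood test, a call being a Benjamini-Hochberg adjusted p below 0.05), with 3 groups in 1 fit and 3 residual degrees of freedom; gate differences between classes used 8 sums, a library block and 2 residual degrees of freedom. CPM are over plain totals of the cells summed, errors after ± are SE, or SD where marked. Named genes were the 10 largest changes per direction (adjusted p under 0.05, log2 CPM of 5 or more, libraries not overlapping, without rule genes), up to 4 of lowest p and up to 4 most abundant per list, all markers and rule genes; Ifit3, Ccl6, Ccl9, Ggt5 and Txnip, and members that did not pass, were named after their values were seen. Replicates of a group differed by 2.23 to 5.69 chi-square per degree of freedom, more than counting error. A few genes of the lists are counted but not reported here by name. Intervals cover counting error only.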

Additional observations from a re-analysis of the deposited data

Results flagged for a closer look

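The gate difference differed between selected and monocyte cells, by the interaction term of the joint edgeR fit, for these genes that the text names. The log2 difference of differences was -2.99 for Spp1, -3.74 for Fabp5, 1.48 for Ckb, 1.58 for Cd36, 1.59 for Cd81, 1.97 for Slco2b1, 2.18 for Cox6a2, 2.43 for Lag3 and 3.70 for Mmp12. Each lost its call in at least 1 of the alternatives, DESeq2 among them for all 9. In monocyte cells Lag3 stood at 2.07 and 1.30 CPM in EAE ROS+ and at 28.1 and 8.93 CPM in EAE ROS- libraries, Slco2b1 at 2.77 and 1.71 against 14.3 and 10.2 CPM, Cox6a2 at 4.79 and 2.66 against 18.2 and 17.6 CPM, and Ckb at 19.5 and 14.2 against 75.9 and 38.8 CPM. Mmp12, a macrophage elastase, stood at 75.8 and 18.8 CPM in EAE ROS+ and 4.90 and 10.8 CPM in EAE ROS- selected cells, and at 24.2 and 73.3 CPM against 56.3 and 138 CPM in monocyte cells; without EAE ROS+ replicate 1 its difference was 1.17 (edgeR adjusted p = 0.906). The Fabp5 value depends on the prior count, since 1 UMI was seen in EAE ROS+ selected cells.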

How the results depend on the processing

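The share difference of -16.1 percentage points became -1.39 with only cells of 0 rule monocyte UMIs and ran from -22.4 to -9.77 without single libraries. In the gate comparison, 0 genes by edgeR became 7 with 0 division-gene UMIs, 6 without cells above 2 times the median UMIs, 7 without a low-count filter and 13 with the rule applied after thinning to 2000 UMIs, and 0 to 11 without single libraries. With a replicate block it called 2 genes over all libraries and 39 (30 higher, 9 lower) over the EAE libraries only, where it called 0 without the block; the deviations of same-numbered EAE ROS+ and EAE ROS- libraries correlated at 0.1 over 7976 genes and 0.39 over 1021 abundant ones. The labels do not say that the numbers pair libraries. In the comparison with healthy cells, 1841 calls became 546 with 0 rule monocyte UMIs, 1230 by DESeq2 and 1863 with the replicate block, and ran from 858 to 1996 without single libraries; leaving out cells above 2 times the median UMIs gave 823 higher and 1031 lower. The 16 calls of the difference between classes became 1 by DESeq2 and 11 without a low-count filter, and ran from 1 to 20 without single libraries.

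Signs turned for gene values that had not passed or lost the call. By gate, thinning before the rule gave 0.16 for Fabp5 and 0.36 for Cybb. By gate without single libraries, Cxcl2 ran from -0.27 to 1.74, Lgals3 from -0.40 to 1.41, Cd36 from -0.19 to 0.52, Cst7 from -2.08 to 0.48 and Cybb from -2.31 to 0.61. Against healthy cells, Ccl4 was -0.03 in cells with 0 rule monocyte UMIs. The cause was not tested. With 0 rule monocyte UMIs no EAE ROS+ cell was left, so neither gate test was run under that setting. Where 1 library of a group was left out, the lone one was assumed to vary like the others. At 10.8 or 18.8 CPM per UMI, depth limits every EAE ROS+ value.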
